A study of Strongylocentrotus purpuratus with 191 samples.

Results

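Purple sea urchin embryos (Strongylocentrotus purpuratus) that share 1 culture do not all reach the gastrula stage together, and the comparison here set cultures whose embryos differed much in stage against cultures whose embryos differed little. Each culture carried a labelled mean and a labelled standard deviation (SD) of its stage score, whose scale was not stated in the sources used here. Within each of 6 groups (2 blocks of parents, named 3 and 4, at 12C, 15C and 18C) the cultures were ranked by that SD. The 10 highest of each group were taken as uneven and the 10 lowest as even, which gave 60 uneven and 60 even cultures of 191 in all, with 71 between them left out. The label of the comparison was checked only against the stage score itself, since no image or count of embryos was used here.

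The cultures came from 32 crosses of 8 females and 8 males, raised in artificial sea water to mid-gastrula at 12C, 15C or 18C, mostly in 2 replicates per cross and temperature (called sister cultures below). No genotype or agent other than parentage and temperature was labelled, and the animals' ages were not given. Total RNA of whole embryos was read with the Illumina DASL assay on a set of genes picked for the study: short oligonucleotides are joined on cDNA, amplified and read on a bead array. The deposited values are log2 with a mean of about 0 per probe and plate, and probes were averaged per gene (336 probes, 74 genes). Each block had a plate of its own, and so the effects of plate and block cannot be told apart. In whole embryos, fewer cells of a type and less RNA per cell cannot be told apart either.

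At gastrulation the sea urchin gut folds inward, the skeletogenic mesenchyme gathers beneath the ectoderm and begins to deposit the skeleton, and the ectoderm splits into oral and aboral territories. The panel follows the gene regulatory network of these steps: Wnt and Delta-Notch signals, the transcription factors of each territory, and the genes that cells switch on when they differentiate. Many of these genes are switched on or off over a short span of stages. The comparison asks whether expression in a culture of mixed stages differs from that in a culture in step at equal mean stage.

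Probes of 4 genes that the comparison returns to are given 5′ to 3′ as deposited, with their strand and genome position not stated in the files. Endo16, a secreted protein of the midgut endoderm, had the smallest p of the comparison. Tel, an ETS-family transcription factor of the skeletogenic network, and SM32, a spicule matrix protein, had the highest positive changes. A probe of SM50, another spicule matrix protein, is shown because it shares a run of 24 bases with a probe of SM32, printed in capitals. Signals of these 2 probes may not be separable. Only identical runs of at least 16 bases were searched for, so near matches between other probes of SM32 and SM50 were not assessed.
Endo16 probe 1: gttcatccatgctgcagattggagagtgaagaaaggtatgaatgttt
Endo16 probe 2: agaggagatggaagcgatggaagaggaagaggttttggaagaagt
Endo16 probe 3: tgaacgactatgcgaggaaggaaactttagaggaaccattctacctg
Endo16 probe 4: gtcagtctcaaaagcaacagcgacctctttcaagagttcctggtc
Endo16 probe 5: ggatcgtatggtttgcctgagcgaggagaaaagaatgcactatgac
Tel probe 1: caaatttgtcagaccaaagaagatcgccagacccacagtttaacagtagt
Tel probe 2: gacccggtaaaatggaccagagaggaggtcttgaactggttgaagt
Tel probe 3: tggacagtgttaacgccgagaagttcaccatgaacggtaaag
SM32 probe 1: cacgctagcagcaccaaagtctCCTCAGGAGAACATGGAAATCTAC
SM32 probe 2: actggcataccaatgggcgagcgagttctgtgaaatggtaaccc
SM32 probe 3: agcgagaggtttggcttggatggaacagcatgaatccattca
SM32 probe 4: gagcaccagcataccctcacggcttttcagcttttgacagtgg
SM50 probe 1: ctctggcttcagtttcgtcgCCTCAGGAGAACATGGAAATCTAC

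The labelled stage SD chose the members and is given as a description. It ran from 0.0880 through a median of 0.115 to 0.147 in uneven cultures, against 0.0318, 0.0608 and 0.0853 in even cultures. The median ratio of SD to mean stage was 34.1% in uneven cultures and 17% in even cultures. Cultures just inside and just outside the rule lay close together: in block 3 at 18C the lowest uneven SD was 0.1201 and the highest middle SD 0.1198, and the lowest middle SD was 0.0789 against a highest even SD of 0.0787.

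**Figure D1:**
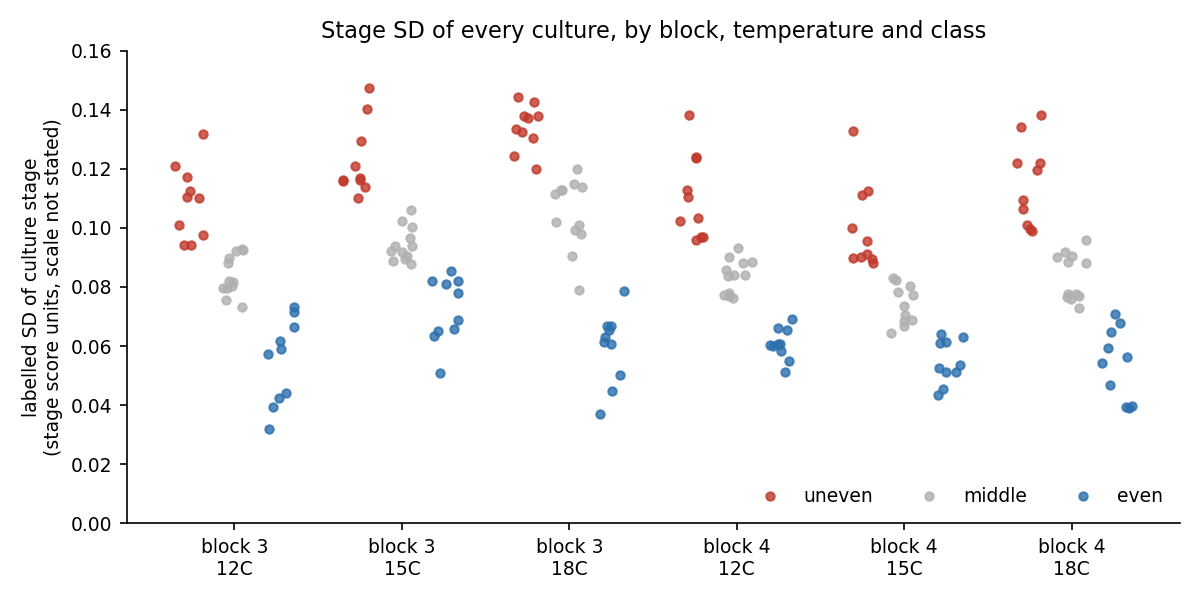
The labelled SD of culture stage (y axis, units of the stage score) of all 191 cultures, split on the x axis by block and temperature. Points are cultures, with uneven cultures left, middle cultures in the centre and even cultures right. The uneven median was 0.115 and the even median 0.0608.

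Mean stage, sampling time and array level, which the rule did not use, did not differ past the test when pooled over the groups. Mean stage averaged 0.348 ± 0.0726 in uneven cultures and 0.353 ± 0.0774 in even cultures (SD, n = 60 each), with p = 0.683 in a two-sided permutation test within groups. Sampling time averaged 29.7 in both classes (unit not stated, permutation p = 0.552). The median probe signal of an array before normalization averaged 11.0 in uneven and 11.1 in even cultures (log2, permutation p = 0.760). After Benjamini-Hochberg adjustment over these 3 measures each p was 0.760. Probe values detected above the negative controls made up 83.9% and 84.0%. All 8 females and all 8 males gave cultures to both classes, with 6 to 9 uneven and 5 to 9 even cultures per female, and 6 to 9 uneven and 4 to 10 even cultures per male.

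Sister cultures often fell into different classes. Of 95 sister pairs, 23 held 1 uneven and 1 even culture, 6 held 2 uneven and 8 held 2 even cultures. The stage SD of the 2 sisters had Pearson's r = -0.20 and Spearman's rho = -0.20, a description with no p because this SD chose the members. Without the 2 pairs farthest from the median, r was -0.21, and within the blocks it was -0.18 in block 3 and -0.18 in block 4. The mean stage of sisters, in contrast, had r = 0.51 and rho = 0.50 (permutation p = 1e-05 for each, the smallest that 100000 resamples give, with 1 relation tested). It had r = 0.49 without the 2 farthest pairs, 0.44 in block 3 and 0.58 in block 4. Over all 191 cultures mean stage and stage SD had r = -0.013 and rho = 0.0090, also given with no p, and r was -0.037 without the 2 farthest cultures, -0.017 in block 3 and -0.0082 in block 4.

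Some arrays stood apart by their place on the plate. The 16 arrays of column 12 of the plates had SM32 at -0.39, 0.91 and 1.62 (lowest, median, highest), against -1.11, -0.070 and 1.61 in the 175 other arrays. P16, a protein of skeletogenic cells that takes part in biomineralization, had -0.21, 1.13 and 1.72 in column 12 and -1.02, -0.025 and 1.38 elsewhere. Of the 10 highest values among 191 arrays, column 12 held 9 for SM32, 9 for P16, 9 for SM50 and 5 for Tel. The medians of column 12 were high on both plates, with SM32 at 0.80 on the block 3 plate and 1.18 on the block 4 plate. Column 12 held 5 uneven, 4 even and 7 middle cultures, and at 15C it held 4 uneven and 0 even cultures. Results are therefore also given without that column.

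No gene passed the test between uneven and even cultures. With block by temperature and mean stage in the limma model, 0 of 74 genes (0%) had an adjusted p under 0.05, and the smallest adjusted p was 0.579. At an unadjusted p under 0.05 there were 4 genes (5.41%), 2 higher and 2 lower in uneven cultures. The changes lay between -0.14 and 0.16 (log2), with 32 genes above 0, 42 below 0 and a median of -0.0094. The median standard error (SE) was 0.040. The 95% interval lay within 0.1 of 0 for 33 genes, within 0.2 for 68 and within 0.3 for 72. A difference of 0.2 corresponds to 1.15-fold. The interval reached farthest up for SM32, to 0.31, and farthest down for the Wnt inhibitor Dkk, to -0.31. Sister cultures of the label may not be separate fertilizations, so these p-values measure the spread between cultures, which may in part be technical.

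**Figure D2:**
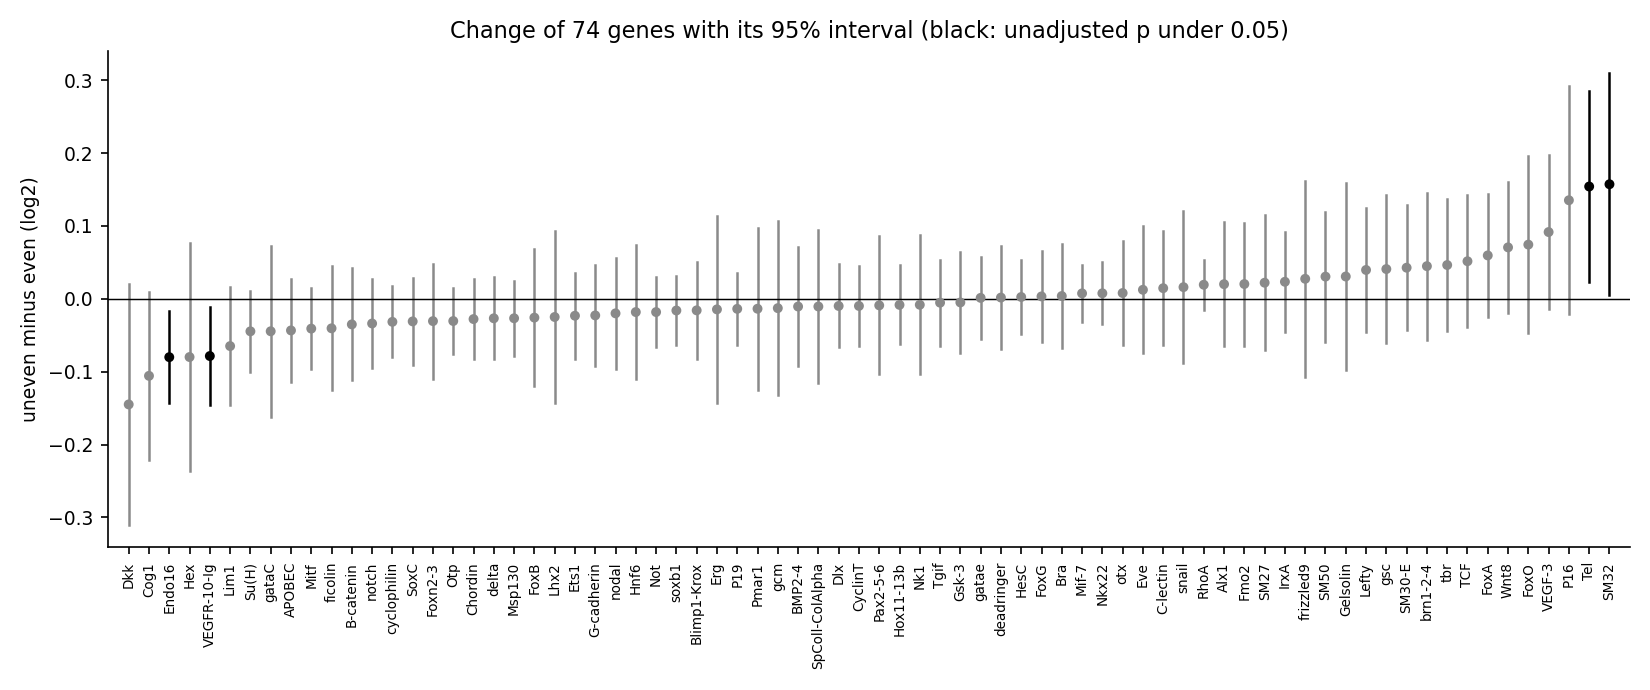
Change of each of 74 genes (x axis, ordered by change) as uneven minus even in log2 units (y axis). Points are limma estimates over 60 uneven and 60 even cultures, and bars are 95% intervals. The estimates run from -0.14 for Dkk to 0.16 for SM32, and 4 genes drawn in black had an unadjusted p under 0.05.

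Endo16 marks the vegetal plate and then the midgut, and it had the smallest p. Its values were -0.47, -0.032 and 0.33 (lowest, median, highest) in uneven cultures and -0.33, 0.033 and 0.47 in even cultures, so the classes overlapped over most of their range. The change was -0.080 ± 0.032 (SE, 0.946-fold, p = 0.0137, limma adjusted p = 0.579). The difference of means was below 0 in each of the 6 groups, between -0.18 in block 3 at 18C and -0.012 in block 4 at 12C. A value below 0 was seen in 35 of 60 uneven and 20 of 60 even cultures. All 5 Endo16 probes had a change below 0, with -0.13 for probe 2 and -0.16 for probe 5 as the lowest. Among sister pairs Endo16 also had the smallest p, as given further on. Without column 12 the change was -0.073 ± 0.034.

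The endoderm list had 11 measured members, of which 7 lay above 0, 4 below 0 and 0 passed the test, with a median change of 0.0038 against -0.0094 over all 74 genes. Wnt8, a Wnt ligand of the vegetal embryo, had a change of 0.071 ± 0.046 (p = 0.124). Its values were -0.31, 0.0035 and 0.73 in uneven cultures, against -0.92, -0.064 and 0.53 in even cultures. FoxA, a forkhead factor of the endoderm, had 0.060 (p = 0.167). Endo16 was the 1 member with an unadjusted p under 0.05.

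The skeletogenic list had 30 measured members, with 14 above 0, 16 below 0 and 0 past the test. Its median change was -0.0080. At an unadjusted p under 0.05 it held 3 genes, Tel, VEGFR-10-Ig and SM32, against 4 of all 74 genes (5.41%). SM27, SM32 and VEGFR-10-Ig were added to this list after their values were seen, so its counts are a description. The signal that guides the skeletogenic cells comes from the ectoderm as VEGF-3 and is received through VEGFR-10-Ig. The receptor VEGFR-10-Ig had values of -0.57, -0.0054 and 0.35 in uneven cultures, against -0.35, 0.046 and 0.44 in even cultures. Its change was -0.079 ± 0.034 (p = 0.0235), below 0 in 5 of 6 groups and for 5 of 6 probes. The ligand VEGF-3 had a change of 0.092 ± 0.053 (p = 0.0889), above 0 in 4 of 6 groups. Its probes differed, with 2 above 0 and 3 below. Those above 0 were the dimmest, with 0.38 and 0.18, detected in 60.2% and 20.4% of cultures. The others, detected in every culture, lay between -0.052 and -0.0079. The sign of VEGF-3 turned with the median over probes and with the brightest probe.

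Among the transcription factors of this list, Tel had values of -0.65, -0.0023 and 1.30 in uneven cultures and -0.97, -0.024 and 0.71 in even cultures. Its medians were close, and the classes differed at both ends: of the 10 highest values 9 were from uneven cultures and 1 from an even culture, and of the 10 lowest 3 were from uneven and 7 from even cultures. The change of Tel was 0.15 ± 0.066 (1.11-fold, p = 0.0215, limma adjusted p = 0.579), above 0 in 4 of 6 groups and for all 3 probes. Without column 12 it was 0.10 ± 0.061 (p = 0.102). The other regulators stayed closer to 0, among them Mitf, a bHLH factor, with -0.041 ± 0.028. deadringer, an ARID factor that was found to follow mean stage in these data, had a change of 0.0017 with a 95% interval of -0.069 to 0.072.

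Of the skeletal products, SM32 had -0.88, 0.0065 and 1.62 in uneven cultures and -1.11, -0.11 and 1.02 in even cultures. The 4 SM32 probes had changes between 0.036 and 0.29, and the lowest was that of probe 1, which shares its run with SM50. The change of the gene was 0.16 ± 0.077 (1.12-fold, p = 0.0431, limma adjusted p = 0.797). P16 had 0.14 ± 0.079 (p = 0.0894) and SM50 0.030. Of these 3 genes column 12 held 9 of the 10 highest values each, as given above. Without that column the changes were 0.078 ± 0.061 for SM32, 0.058 ± 0.064 for P16 and -0.015 ± 0.036 for SM50.

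**Figure D3:**
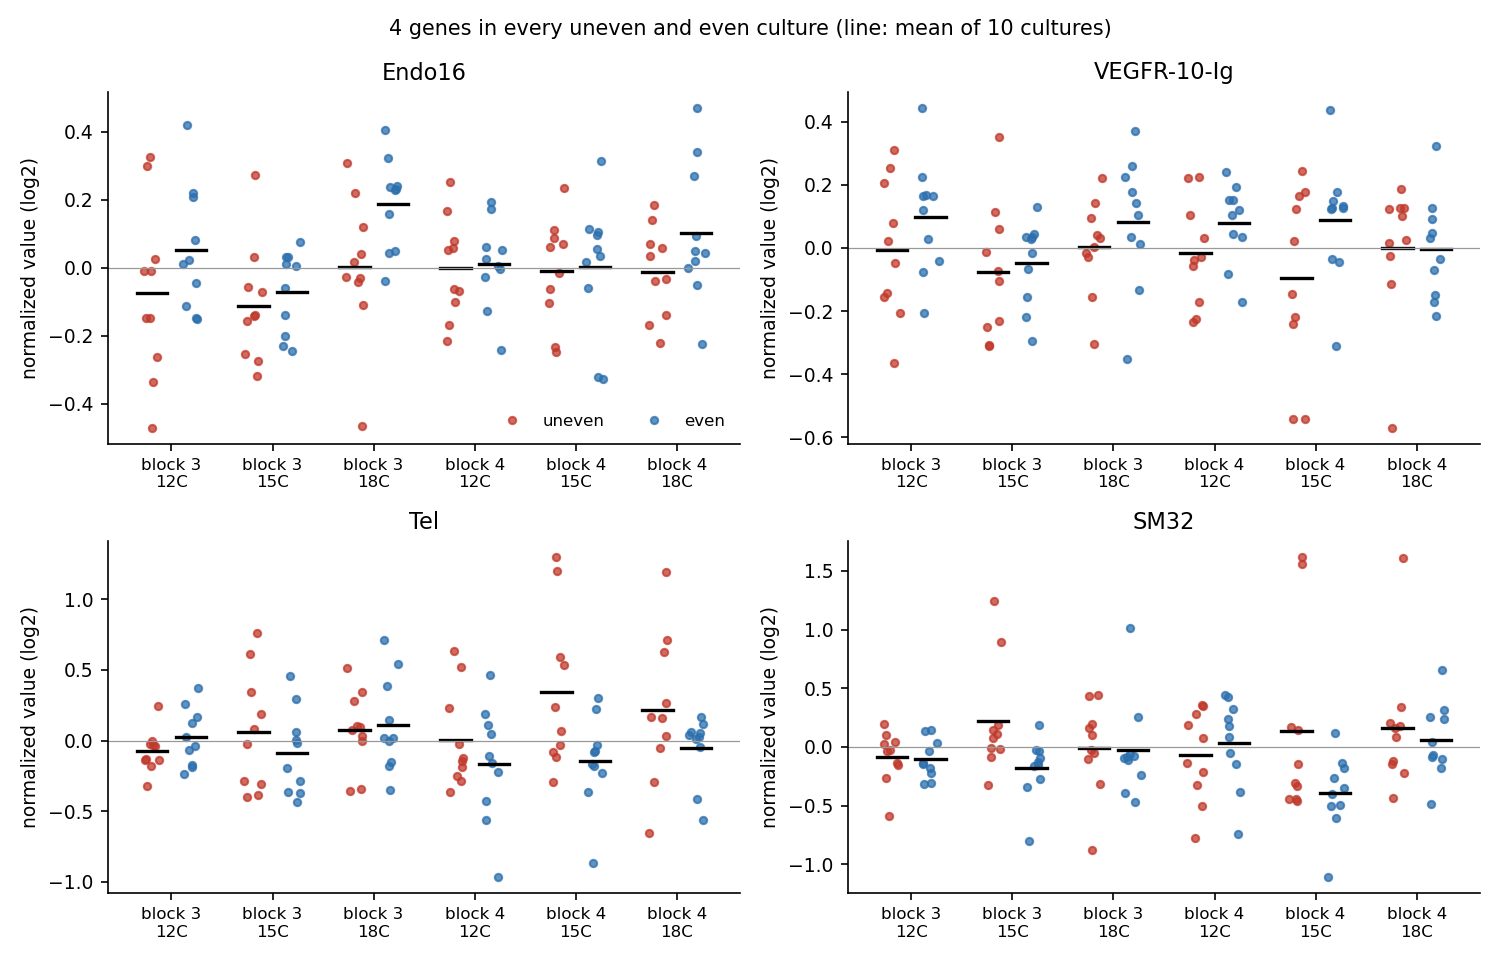
Normalized values (y axis, log2) of Endo16, VEGFR-10-Ig, Tel and SM32 in every uneven culture (left of each pair) and even culture (right), by block and temperature on the x axis. Points are cultures and lines are means of 10. In all 4 genes the 2 classes overlap in every group, and the 2 highest SM32 and Tel values of block 4 at 15C come from the same pair of uneven cultures.

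No member of the signalling lists passed the test. In the Wnt list 3 of 6 members lay above 0 and 3 below, with a median of 0.011. Dkk, which blocks Wnt receptors, had the lowest change of the panel at -0.14 ± 0.083 (p = 0.0848). Its values were -2.32, -0.054 and 1.30 in uneven cultures and -1.50, 0.12 and 0.80 in even cultures, and it had 2 probes detected above the negative controls in most cultures of block 3 and 1 in block 4. In the Delta-Notch list 1 of 5 members lay above 0 and 4 below, with a median of -0.027. Its transcription factor Su(H) had -0.045 ± 0.028 (p = 0.114), and the receptor notch had -0.034 but had at most 1 of its 6 probes detected. In the list of Nodal and BMP signals 1 of 4 lay above 0, with a median of -0.015.

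Ectodermal territories showed small changes as well. Of 12 oral ectoderm genes 6 lay above 0 and 6 below (median -0.0045), and of 3 aboral genes 2 above and 1 below (median 0.0075). Lim1, a homeobox gene of the oral ectoderm, had -0.065 ± 0.041 (p = 0.114). All 4 genes of the ciliary band and general ectoderm lay below 0, between -0.031 and -0.016. In the list of pigment cells and other mesoderm 2 of 6 lay above 0 and 4 below, with a median of -0.014. CyclinT was the 1 measured gene of general cell functions, with -0.0098, and no heat shock gene was on the panel. Of the 6 genes in no list, Cog1 had the lowest change, -0.11 ± 0.058 (p = 0.0724). Cog1 and Endo16 were the 2 genes (2.70%) with 1 sign in all 6 groups.

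Comparison of sister cultures held parents, temperature and plate constant, but not the column of the plate. No result of the pairs without column 12 is given here. There were 23 pairs from 21 crosses in which 1 sister was uneven and the other even, 11 in block 3 and 12 in block 4. The limma fit on their differences had the difference in mean stage as a covariate. It passed 0 of 74 genes (0%), with 3 (4.05%) at an unadjusted p under 0.05. Endo16 differed by -0.44, -0.078 and 0.18 (lowest, median, highest) between the uneven and the even sister, and it was higher in the uneven sister in 8 of 23 pairs. Its fitted difference at equal mean stage was -0.084 ± 0.037 (p = 0.0322, limma adjusted p = 0.997), close to the change over all cultures. SM32 was higher in the uneven sister in 17 of 23 pairs, with 0.22 ± 0.10 (p = 0.0443), and Dkk was higher in 9 of 23 pairs, with -0.24 ± 0.11 (p = 0.0378). All of these cultures are also in the main comparison, so the pairs are not independent of it. Tel was higher in the uneven sister in 13 of 23 pairs (0.12 ± 0.095).

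The 2 blocks did not differ past the test. With the term for uneven by block, 0 of 74 genes (0%) passed and 2 (2.70%) had an unadjusted p under 0.05. Tel had a change of 0.31 ± 0.092 in block 4 and 0.00017 ± 0.092 in block 3, a difference of 0.31 ± 0.13 (p = 0.0193, limma adjusted p = 0.738). VEGF-3 had 0.20 in block 4 and -0.013 in block 3, a difference of 0.21 ± 0.11 (p = 0.0489). FoxB, a forkhead factor, had the next smallest p, with a difference of 0.16 ± 0.094. The panel moved the same way, with 60 of 74 differences between blocks above 0 (median 0.061). In block 4, 54 genes lay above 0 and 20 below, and in block 3, 17 above and 57 below. The 2 highest Tel values belonged to 2 uneven block 4 arrays at 15C described further on. Without both, 0 genes had an unadjusted p under 0.05 between blocks. Without plate column 12, which held both of these arrays, 0 genes passed between blocks and 2 had an unadjusted p under 0.05. Tel had the smallest p there too.

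The comparison differed between temperatures for 4 of 74 genes (5.41%) at an adjusted p under 0.05, and 29 (39.2%) had an unadjusted p under 0.05. The whole panel moved with these genes. The median of the 74 genes in a culture averaged -0.037 ± 0.11 in uneven and 0.019 ± 0.14 in even cultures at 12C (SD, n = 20 each, permutation p = 0.169). At 15C it averaged 0.055 ± 0.14 in uneven and -0.045 ± 0.10 in even cultures, a difference of 0.099 (n = 20 each, permutation p = 0.0115, adjusted over 3 temperatures 0.0346), with 0.063 in block 3 and 0.14 in block 4. At 18C it averaged -0.016 ± 0.11 in uneven and 0.056 ± 0.10 in even cultures (n = 20 each, permutation p = 0.0426, adjusted 0.0638). At 12C and 18C no difference passed after adjustment. This test was chosen after the data were seen. It has no term for plate column, and column 12 held 4 uneven and 0 even cultures at 15C. Without column 12 the difference at 15C was 0.054, given without a test. The permutation also has no term for mean stage, which moved with the panel in some groups. Uneven minus even, mean stage was 0.061 in block 4 and 0.0055 in block 3 at 15C, -0.022 and -0.038 at 12C, and -0.045 and 0.0050 at 18C. With mean stage in a linear model the panel differences were -0.053, 0.096 and -0.070 at 12C, 15C and 18C, given without a test.

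**Figure D4:**
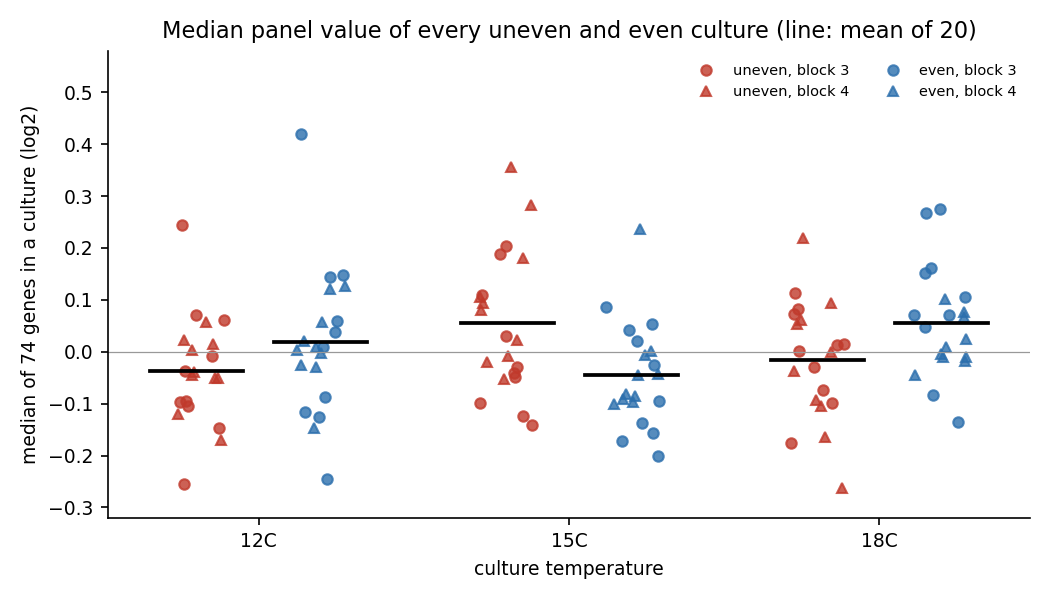
Median of the 74 genes in each culture (y axis, log2) at 12C, 15C and 18C (x axis), uneven cultures left and even cultures right. Circles are block 3, triangles block 4, and lines are means of 20 cultures. At 15C the mean is 0.055 in uneven and -0.045 in even cultures, and the classes overlap at every temperature.

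The 4 genes were Nk1, a homeobox factor, Fmo2, a flavin monooxygenase of pigment cells, Hnf6, a onecut factor of the ciliary band, and TCF, the DNA-binding partner of beta-catenin in Wnt signalling. The limma adjusted p was 0.0457 for each, and they are a pigment gene, an ectoderm gene, a Wnt gene and a gene in no list. Nk1 at 12C had -0.62, -0.041 and 0.33 in uneven and -0.70, -0.013 and 0.52 in even cultures. At 15C Nk1 had -0.39, 0.11 and 0.40 in uneven and -0.53, -0.13 and 0.85 in even cultures. At 18C Nk1 had -0.40, -0.090 and 0.46 in uneven and -0.41, 0.21 and 0.76 in even cultures. The classes overlapped at each temperature, and the medians stood in opposite order at 15C and 18C. The changes of Nk1 were -0.060 at 12C, 0.23 at 15C and -0.20 at 18C, each ± 0.080.

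Fmo2 had changes of -0.048, 0.23 and -0.13 at 12C, 15C and 18C, each ± 0.071. At 15C its uneven cultures ran from -0.29 to 1.17 with a median of -0.0078, against -0.30 to 0.16 with a median of -0.12 in even cultures. The 2 dimmest Fmo2 probes, detected in 24.1% and 7.33% of cultures, had the highest changes at 15C, 0.45 and 0.43, and the brightest had -0.0023. Hnf6 had -0.035, 0.19 and -0.21, each ± 0.077, and 1 of its 3 probes was detected in every culture. At 15C that probe had a change of 0.086. The others, each detected in 35.6% of cultures, had 0.0015 and 0.47. TCF had -0.059, 0.27 and -0.065, each ± 0.076 to 0.077, with all 6 probes above 0 at 15C.

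Within 15C, 14 of 74 genes (18.9%) passed, each higher in uneven cultures, in a fit whose spread and stage slope were shared with 12C and 18C, while 0 (0%) passed within 12C and 0 (0%) within 18C. With the 15C cultures fitted alone 0 genes passed (smallest limma adjusted p 0.0821) and 23 had an unadjusted p under 0.05. In the shared fit there were, at an unadjusted p under 0.05, 1 gene (1.35%) at 12C, 26 (35.1%) at 15C and 10 (13.5%) at 18C. In a fit with a change for each of the 6 groups and 1 spread shared by them, 13 genes (17.6%) passed in block 4 at 15C, 12 of them (16.2%) higher in uneven cultures, and 25 (33.8%) had an unadjusted p under 0.05, while in block 3 at 15C 0 passed and 1 had an unadjusted p under 0.05. Fitted on block 4 alone, 0 passed at 15C (smallest adjusted p 0.0528) and 28 had an unadjusted p under 0.05, and on block 3 alone 0 passed and 7 had one. Genes above 0 numbered 8 at 12C, 62 at 15C and 10 at 18C, with median changes of -0.049, 0.080 and -0.057. These 14 genes, named after their values were seen, included 6 of 30 skeletogenic members (SM32, SM50, Tel, FoxO, VEGF-3 and the T-box factor tbr), 3 of 11 endoderm members (FoxA, Wnt8 and Eve), and gsc of the oral and IrxA of the aboral ectoderm. The remaining ones were Fmo2, Nk1 and TCF. SM32 was added to the skeletogenic list after its values were seen. The 2 dimmest VEGF-3 probes had changes of 1.04 and 0.44 at 15C, and its others lay between -0.020 and 0.075. SM32 had the highest change. It had -0.46, 0.034 and 1.62 in uneven cultures at 15C and -1.11, -0.22 and 0.19 in even cultures, a change of 0.50 ± 0.13 (1.42-fold, limma adjusted p = 0.0117).

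**Figure D5:**
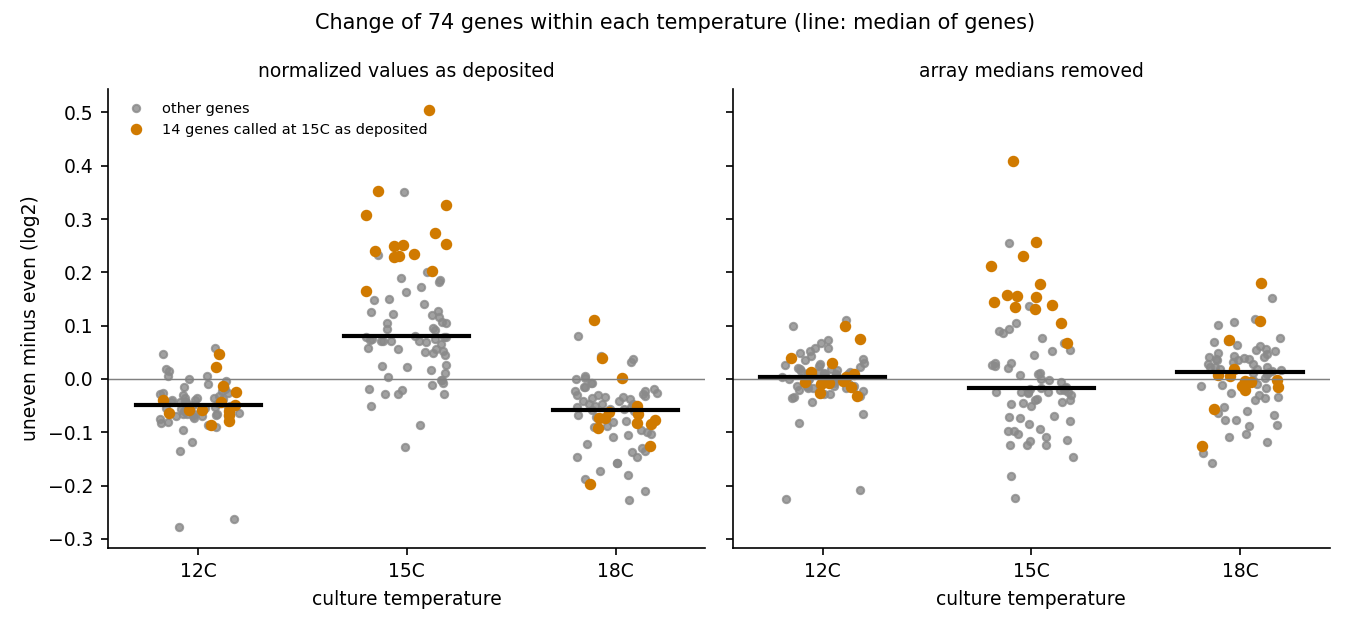
Change of each of 74 genes, uneven minus even (y axis, log2), within 12C, 15C and 18C (x axis), for the values as deposited (left panel) and after removal of each array's median (right panel). Points are genes, orange points are the 14 genes that passed at 15C as deposited in the fit over all temperatures, and lines are medians. As deposited the median was 0.080 at 15C, and with array medians removed it was -0.016.

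With array medians removed, 0 genes passed the test between temperatures, and 33 genes lay above 0 and 41 below at 15C. Within 15C 2 genes then passed, SM32, which was higher in uneven cultures by 0.41 ± 0.12, and VEGFR-10-Ig, which was lower. The number of 15C calls also depended on single arrays. Each of the 40 arrays at 15C was left out in turn, and 0 to 21 genes then passed within 15C and 0 to 19 between temperatures. The count was 0 in 2 of the 40 fits within 15C and in 13 between temperatures. The next lowest count within 15C was 9. Both times that 0 passed within 15C, the array left out was 1 of 2 uneven block 4 arrays of highest median (0.36 and 0.28). The smallest limma adjusted p was then 0.0507 and 0.0504, with 62 genes above 0 each time. Those 2 arrays came from different crosses, held the values ranked 1 and 3 of 120 for SM32, P16, SM50 and FoxA and 1 and 2 for Tel and Fmo2, and both stood in column 12. For VEGFR-10-Ig these arrays ranked 118 and 119 of 120. They also had the 2 lowest stage SDs of the 10 uneven cultures of their group, 0.0896 and 0.0880, next to a highest middle SD of 0.0829. Their values over the 74 genes had r = 0.91, a description over genes of 1 plate, against a median of 0.29 between sister cultures. This r ranked 4 among 18145 pairs of arrays. Other arrays of column 12 on that plate were also set against the array of median 0.36. Their r was 0.81, 0.86 and 0.83 for middle cultures, 0.34 for an uneven culture, and 0.033 and -0.27 for even cultures. Without the 2 high uneven arrays 0 genes passed within 15C and 0 between temperatures, and 60 genes lay above 0 at 15C.

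Without column 12 of both plates, which left 16 uneven and 20 even cultures at 15C, 0 genes passed within 15C and 2 had an unadjusted p under 0.05. The median change at 15C was then 0.037 with 62 genes above 0, and the difference of panel medians was 0.054. Between temperatures 0 genes passed and 3 had an unadjusted p under 0.05. Over all temperatures 0 genes passed and 3 had an unadjusted p under 0.05, among them Endo16 at -0.073 (p = 0.0332).

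A further comparison asked whether expression followed mean stage differently in the 2 classes. Slopes are given per 0.1 unit of the stage score. Within uneven cultures 0 of 74 genes (0%) had a slope past the test, and within even cultures 9 (12.2%) did, but the difference of slopes passed for 0 genes (0%) and had an unadjusted p under 0.05 for 6 (8.11%). deadringer had 0.098 ± 0.037 in uneven and 0.12 ± 0.034 in even cultures, a difference of -0.022 ± 0.051 (p = 0.668). The genes of smallest p were Hox11-13b, a posterior Hox gene, with 0.077 ± 0.028 in uneven and -0.023 ± 0.025 in even cultures, Gsk-3, a kinase of the Wnt pathway, with -0.023 ± 0.036 in uneven and 0.093 ± 0.033 in even cultures, and C-lectin, with -0.061 ± 0.041 in uneven and 0.067 ± 0.037 in even cultures. Each of these 3 differences had a limma adjusted p of 0.420.

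Uneven cultures were not shown to differ more among themselves. In the test of absolute deviations 0 of 74 genes (0%) passed and 8 (10.8%) had an unadjusted p under 0.05. The SD within groups was higher in uneven cultures for 42 of 74 genes, with a median ratio of 1.03, and for 20 of 30 skeletogenic genes, with a median ratio of 1.12. SM50 had an SD of 0.30 in uneven and 0.16 in even cultures (ratio 1.82, p = 0.00805), and P16 had 0.52 in uneven and 0.33 in even cultures (ratio 1.57, p = 0.0114). Without the 2 high block 4 arrays these ratios were 1.52 and 1.37, and no ratio without plate column 12 is given here. Without that column 0 genes passed the test of absolute deviations. The number with an unadjusted p under 0.05 was then 3, against 8 with every array kept. With every array kept, the oral homeobox gene Not had the smallest p and less spread in uneven cultures. Its SD was 0.098 against 0.15 in even cultures (p = 0.00354, limma adjusted p = 0.196). The homeobox gene Otp also had less spread in uneven cultures, at 0.10 against 0.14. Without plate column 12 Not again had the smallest p. Not and Otp had 0 probes detected above the negative controls in most cultures of either block.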

How the data were processed

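Per the file headers and the labels, the deposited normalized table holds log2 values that the authors normalized (the method is not given in the sources used here), with probe means near 0 on each plate. The submitters' processing notes name BeadStudio. A deposited non-normalized table, read from its range of 7.17 to 14.7 as log2 signal, gave 27 negative controls, against which a probe was called detected where under 0.05 of them reached its value (83.9% of probe values). Of its array columns, 1 was mapped to no sample and not used. The series matrix held the same values as the normalized table.

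Probes were averaged per gene (2 to 6 probes). Uneven and even cultures were the highest and lowest by labelled stage SD, 10 of each class in each of 6 groups. They were compared with limma 3.58.1 in R 4.3.3 (lmFit and eBayes, block by temperature and stage mean in the model, 112 residual degrees of freedom), with Benjamini-Hochberg adjustment over 74 genes. Further fits took terms for block, temperature and stage slope, absolute deviations, and sister differences. Single measures used two-sided permutation within groups (100000 resamples, numpy 2.4.6), and Spearman's rho was taken with scipy 1.17.1. Precision is limited by how many cultures were arrayed. The fits were tested on simulated data whose noise was independent between genes and between cultures. Those data held no shift of whole arrays, no plate column effect and no likeness of sister cultures, so they do not test how the fits behave under these.

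Members, gene lists and tests were chosen with earlier results of these data known, and SM27, SM32, VEGFR-10-Ig, Nkx22 and Gsk-3 were added to lists after their values were seen. Genes are named where they passed a test (up to 10), had 1 of the 12 smallest p of the main comparison, 1 of the 2 smallest p of a list or 1 of the 3 smallest p of another comparison, or had 1 sign in all groups, with deadringer added. FoxA, FoxO, tbr, gsc, Eve, SM50 and P16 at 15C or on the plates fell outside this rule in part and were named after their values were seen. Of the panel's gene names, 26 matched the RefSeq gene table (Spur_5.0), and names are those of the files. Replicate numbers of the labels were not said to mark a batch. For each cross, the deviation of replicate 1 from the mean of its sister pair was correlated over genes between temperatures. The median correlations lay between -0.028 and 0.073, so the numbers were not taken to pair cultures.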

Additional observations from a re-analysis of the deposited data

Results flagged for a closer look

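In the 36 groups of 10 cultures that were tested for a value far from the others (3 measures in uneven and even cultures of 6 groups), 2 values stood apart, and chance alone flags about 1 in 20 such groups. The even block 4 culture of highest panel median at 15C lay at 0.24, with the other 9 even cultures of its group between -0.10 and 0.0021. Left out, it gave 17 genes past the test between temperatures in place of 4. The uneven block 4 culture of highest mean stage at 12C had a stage score of 0.426, with the others of its group between 0.278 and 0.345.

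The difference between uneven and even cultures was not the same at 12C, 15C and 18C for 4 genes by the limma test of the difference itself. The F values were 7.24 for Nk1, 6.89 for Fmo2, 6.58 for Hnf6 and 6.33 for TCF, each with an adjusted p of 0.0457. Over 18 alternatives these genes passed in 6 to 7 each, with adjusted p between 0.00551 and 0.832. Those 18 leave out the fits without plate column 12 and without the high uneven arrays at 15C. In each of these fits 0 genes passed between temperatures. They also leave out the 40 fits without a single array at 15C, of which 13 passed 0 genes. Panel medians and plate column 12 moved with the 4 genes, as reported above.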

How the results depend on the processing

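Between uneven and even cultures 0 genes passed in each of 26 alternatives, whose smallest adjusted p was 0.0821 (15C alone), and in each fit without 1 array at 15C. The files gave no detection measure for the planned low-signal filter, and probes above the negative controls stood in for it. Among 33 named genes 6 kept their sign in every alternative, and the sign turned in 116 of 855 values, none of them past the test. The difference between blocks, the stage slope and the sister pairs passed 0 genes throughout. The spread passed 1 gene, delta, with array medians removed.

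The 4 calls between temperatures became 8 without the stage mean, 9 with the replicate block, 7 with sampling time, 21 without the 10 arrays of most distant median and 17 without the even block 4 array of highest median at 15C. They became 0 with array medians removed, the non-normalized table, plate row and column, a stage slope per group, block 3 alone, block 4 alone, smaller or larger outer classes of stage SD, stage SD as a number, without plate column 12 and without the 2 high uneven arrays. Leaving out replicate 1 or 2 gave 0 to 10, and leaving out single 15C arrays 0 to 19. The 14 calls within 15C became 2 with array medians removed, 5 with the non-normalized table, and 0 with 15C fitted alone, in block 3 alone, block 4 alone, without plate column 12 and without the 2 high arrays, with 0 to 13 without a replicate and 0 to 21 without a single array. They were 14 with the replicate block and 15 without the stage mean. The replicate block left the counts of the other comparisons as they were. The cause of these shifts was not tested. Alternatives by column, single array and within temperature, and the test of panel medians, were chosen after seeing the data.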

Other observations

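The shift at 15C ran through probes of every brightness. Among the 84 dimmest probes 63 were higher in uneven cultures at 15C and 21 lower, with a median change of 0.12, and among the 84 brightest 71 were higher and 13 lower, with a median of 0.068. At 12C the medians of the dimmest and the brightest probes were -0.040 and -0.040, and at 18C -0.041 and -0.051.

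Column 11 of the block 3 plate held 6 uneven and 0 even cultures, and the panel median of all 8 of its arrays was below 0. On the block 4 plate all 8 arrays of column 12 had a panel median above 0. Their part in the comparison was not tested beyond the fits with plate row and column and without column 12.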
